A study of Mus musculus with 6 samples.

Results

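SoxB genes and early neural transcription factors were examined in mouse neuromesodermal progenitors (NMPs) treated for 2 h with retinoic acid (RA). The 10 genes, of 20631 listed, were chosen by their symbols in the 6 deposited tables, and their counts and RPKM were summed over transcripts. They are the SoxB genes *Sox1*, *Sox2*, *Sox3* and *Sox21* and the neural transcription factors *Nkx1-2*, *Pax3*, *Pax6*, *Neurog2*, *Olig2* and *Irx3*, with 19 RefSeq transcripts between them. NMPs were derived in culture from embryonic stem cells by bFGF for 2 days and by bFGF with the WNT agonist CHIR99021 for 1 day, in all samples alike. Per the methods, bFGF and CHIR99021 were then removed from all samples. The RA samples received either 25 nM or 1 µM RA for 2 h without them. The control samples received DMSO for the same time, also without them, 2 samples per condition. The labels give the strain as 129 R1 and the methods name C57BL/6 cells, so that the line is not settled here. The duplicates are separate culture dishes that the methods call technical replicates, so that the errors and p-values below measure the spread between dishes of one experiment.

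SoxB proteins are HMG-box transcription factors of the early embryo. *Sox1*, *Sox2* and *Sox3* activate transcription, mark neural progenitors and hold them back from differentiation, whereas *Sox21* belongs to the repressor branch of the family. *Sox2* is also a pluripotency gene, and its expression together with *T* (brachyury) is the usual mark of an NMP. *Nkx1-2* is a homeobox gene of the caudal epiblast and preneural tube. *Irx3*, *Pax6*, *Pax3* and *Olig2* belong to progenitor domains of the later neural tube, and *Neurog2* drives neuronal commitment. RA, made by the neighbouring mesoderm, binds nuclear receptors on DNA and promotes the passage from caudal progenitors to spinal cord.

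*Sox2* and *Nkx1-2* rose at both doses of RA and *Sox21* fell, while *Sox3*, *Sox1*, *Irx3* and *Pax6* did not pass the test. *Pax3*, *Neurog2* and *Olig2* had too few reads to be tested. So 3 of the 10 genes were called at 25 nM RA, where 8.05% of all genes tested were called, and the same 3 at 1 µM RA, where 19.7% were called. *Sox2* rose from 5.20 ± 0.00892 RPKM in DMSO to 15.4 ± 0.199 RPKM in 25 nM RA and 16.3 ± 1.35 RPKM in 1 µM RA (SD, n = 2), and *Nkx1-2* from 39.1 ± 0.250 RPKM to 79.5 ± 2.34 and 77.7 ± 4.04 RPKM. RPKM, a count relative to the length of the transcript and the depth of the library, is the scale on which levels of different genes are compared here. RNA was extracted from whole dishes, so that fewer cells of a type and less RNA per cell cannot be told apart.

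The windows of 250 bases before the transcription start of the 3 genes that moved are shown because these genes responded within 2 h and in opposite directions. Sequences and starts are from RefSeq (GRCm38.p6, which shares its coordinates with mm10), 5′ to 3′ on the strand of the gene. Of the 10 genes, 8 have an entry. Capitals mark letters searched for on both strands: the nuclear receptor hexamer AGGTCA, its variant spelled AGTTCA, direct repeats of these hexamers (DR1, DR2 and DR5), the CCAAT box, the GC box GGGCGG, the TATA box TATAAA, the Sox motif ACAAAG and the octamer ATGCAAAT.
Sox2 promoter, chr3:34649745-34649994, plus strand: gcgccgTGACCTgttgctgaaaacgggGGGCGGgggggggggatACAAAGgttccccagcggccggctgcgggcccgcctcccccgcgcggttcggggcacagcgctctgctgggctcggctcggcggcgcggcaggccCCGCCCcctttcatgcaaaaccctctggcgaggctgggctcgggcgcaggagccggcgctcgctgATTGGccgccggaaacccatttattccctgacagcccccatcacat
Nkx1-2 promoter, chr7:132599638-132599887, minus strand: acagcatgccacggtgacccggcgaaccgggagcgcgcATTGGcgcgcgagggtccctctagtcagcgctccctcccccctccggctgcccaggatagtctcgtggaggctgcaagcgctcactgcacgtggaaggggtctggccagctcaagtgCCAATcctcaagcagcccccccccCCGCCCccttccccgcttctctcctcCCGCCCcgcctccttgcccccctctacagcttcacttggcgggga
Sox21 promoter, chr14:118237031-118237280, minus strand: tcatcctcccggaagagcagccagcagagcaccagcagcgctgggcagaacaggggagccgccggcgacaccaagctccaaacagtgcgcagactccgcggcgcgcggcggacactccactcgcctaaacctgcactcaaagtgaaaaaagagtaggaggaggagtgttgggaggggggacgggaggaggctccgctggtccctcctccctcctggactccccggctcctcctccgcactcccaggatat

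In the *Sox2* window, 1 AGGTCA lies on the reverse strand with its far end 244 bases before the start. The same 6 letters are found in 14.0% of the 32851 promoter windows of this length. The *Sox2* window also holds 1 ACAAAG, 206 bases before the start, 1 reverse CCAAT and 2 GGGCGG. The *Nkx1-2* window holds 2 CCAAT and 2 GGGCGG, and none of the searched letters are in the *Sox21* window. ACAAAG is in 16.5%, CCAAT in 33.8% and GGGCGG in 32.7% of all windows. AGTTCA (11.8% of windows), DR1 (0.0670%), DR2 (0.0365%), DR5 (0.0335%), TATAAA (12.4%) and ATGCAAAT (1.60%) are in none of the 3 windows. No searched motif overlaps another of a different kind in the 3 windows. The windows are GC-rich, at 72.0% for *Sox2*, 69.6% for *Nkx1-2* and 65.2% for *Sox21*, against a median of 52.4% over all windows. These matches describe the letters of short windows and say nothing of receptor binding.

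The estimated counts that the authors deposited summed to between 31753556 and 42029348 per sample, and no sample stood apart in its total. Counts were summed per gene and tested with edgeR's likelihood ratio test in one fit of all 6 samples, and a gene was called at an adjusted p under 0.1 (Benjamini-Hochberg over 15143 genes). All 5 NMP markers examined (*T*, *Sox2*, *Nkx1-2*, *Cdx1*, *Cdx2*) were above 1 RPKM, with a sum between 426 and 505 RPKM. The cells also held *Pou5f1* at a mean of 445 RPKM in DMSO and *Nanog* at 19.3 RPKM. Markers of fibroblast feeders summed to 5.26 to 6.27 RPKM, and of the 6 tested 3 fell at 1 µM RA, while the smallest edgeR adjusted p at 25 nM RA was 0.212. As a check of the treatment, *Rarb*, *Dhrs3* and *Cyp26a1*, which are direct RA responses, rose at both doses, with log2 fold changes of 4.53, 4.91 and 1.76 at 25 nM RA.

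Across the 10 genes the levels covered a wide range in DMSO. *Nkx1-2* was the highest and *Sox2* came next. *Irx3* (4.89 ± 0.00798 RPKM) and *Sox3* (4.89 ± 0.177 RPKM) followed, and their samples overlapped, so that they could not be ordered. *Sox21* (0.746 ± 0.0633 RPKM) and *Sox1* (0.237 ± 0.0120 RPKM) were lower, and each differed from its neighbours without overlap. *Pax6* (0.0524 RPKM), *Neurog2* (0.0369 RPKM), *Pax3* (0.0221 RPKM) and *Olig2* (0.0120 RPKM) stood lowest, and each of these 4 overlapped the one above it except *Pax6*, which lay below *Sox1*. In RA the order changed only among overlapping neighbours (*Sox3* with *Irx3*) and among *Pax3*, *Neurog2* and *Olig2*.

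**Figure D1:**
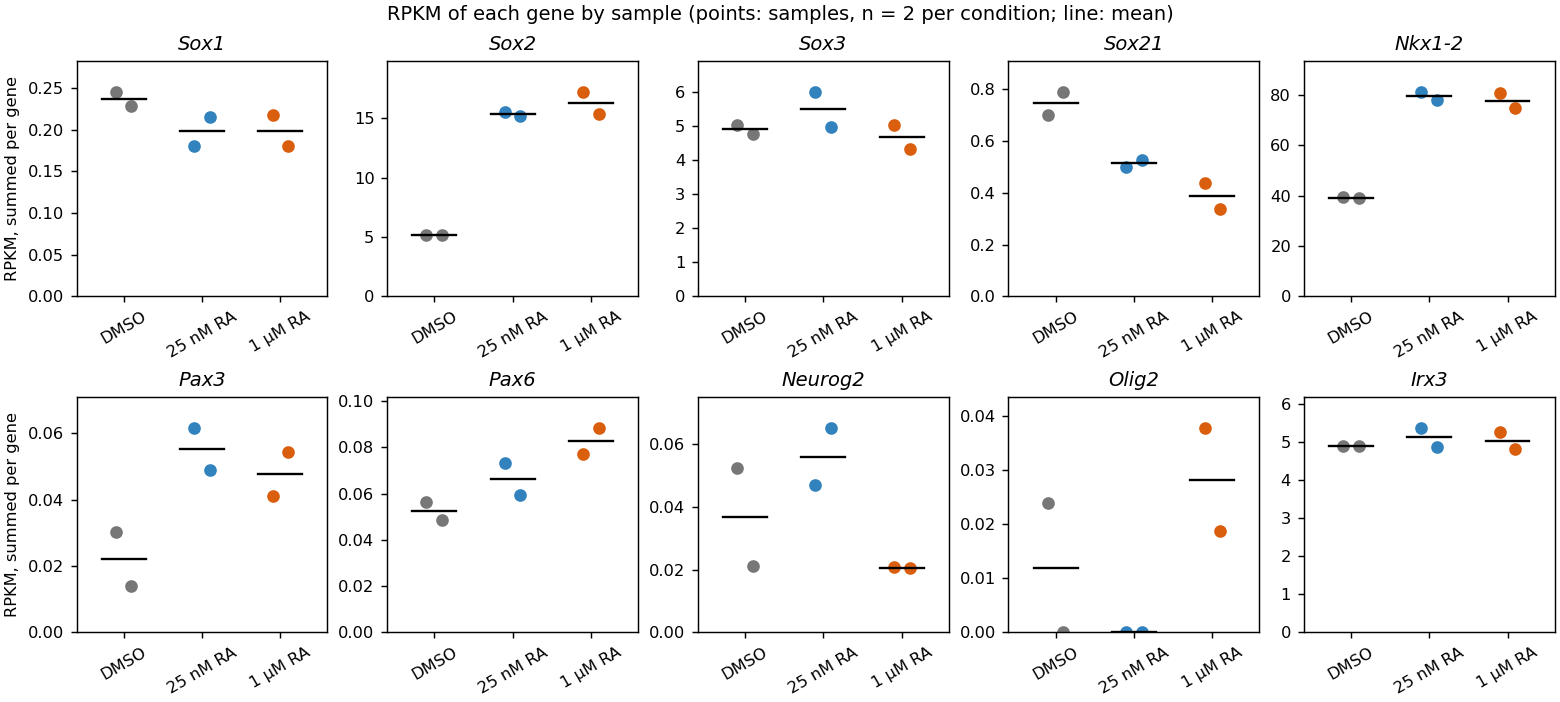
RPKM (vertical axis, linear and from 0, a scale of its own in each panel) of the 10 genes in DMSO, 25 nM RA and 1 µM RA. Points are the 2 samples of a condition and lines their mean; *Sox2* and *Nkx1-2* lie above DMSO in all 4 RA samples, *Sox21* below it, and *Sox3* and *Irx3* overlap.

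*Sox2* (NM_011443) is a single-exon gene at chr3:34650005-34652460 (mm10, plus strand), inside the span of the noncoding gene *Sox2ot*. Its estimated counts were 659 and 540 in DMSO, 1467 and 1811 in 25 nM RA, and 1839 and 1657 in 1 µM RA. Its RPKM values were 5.21 and 5.20, then 15.5 and 15.2, then 17.3 and 15.3. All 4 RA samples were above both DMSO samples, and the samples of both doses overlapped. The increase was 2.95-fold at 25 nM RA (95% interval 2.67 to 3.25, log2 fold change 1.56 ± 0.073 SE, edgeR adjusted p = 2.38e-100). At 1 µM RA it was 3.12-fold (95% interval 2.82 to 3.44, log2 fold change 1.64 ± 0.073 SE, edgeR adjusted p = 3.09e-112). Only 0.436% of the genes tested had a larger log2 fold change than *Sox2* at 25 nM RA, and 0.535% at 1 µM RA. Between doses *Sox2* differed by a log2 fold change of 0.08 (95% interval -0.05 to 0.21, edgeR adjusted p = 0.641). A difference between the doses was thus not detectable for *Sox2*.

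*Sox2ot*, whose single listed transcript runs in the same direction across *Sox2*, had between 15 and 23 estimated counts per sample. It had a log2 fold change of 0.07 with 25 nM RA (edgeR adjusted p = 0.964) and -0.27 at 1 µM RA (edgeR adjusted p = 0.678). Markers of pluripotent cells, which also express *Sox2*, summed to 460 to 483 RPKM in DMSO, 463 to 497 RPKM in 25 nM RA and 479 to 491 RPKM in 1 µM RA. Among these 7 markers no edgeR adjusted p was under 0.494 (25 nM RA) or 0.162 (1 µM RA). Of the markers of neural progenitors, *Sox1*, *Pax6*, *Hes5*, *Neurog2* and *Olig2* each had a mean under 1 RPKM in every condition, and *Olig2* was listed at 0 in 3 samples. *Hes5*, a target of Notch signaling, rose at 1 µM RA, from 0.317 to 0.629 RPKM (edgeR adjusted p = 0.0216). The 6 markers of paraxial mesoderm summed to 87.7 to 88.8 RPKM in DMSO, 62.1 to 67.3 RPKM in 25 nM RA and 57.0 to 62.1 RPKM in 1 µM RA. At each dose 4 of them fell (*Tbx6*, *Msgn1*, *Mesp1*, *Mesp2*) and 2 rose (*Meox1*, *Tcf15*). The part of such cells in the change of *Sox2* was not tested.

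*T*, the other gene that marks NMPs, stood at a mean of 375 RPKM in DMSO, 375 RPKM in 25 nM RA and 370 RPKM in 1 µM RA. On the log2 scale *T* differed from DMSO by -0.0050 with 25 nM RA (95% interval -0.10 to 0.09, edgeR adjusted p = 0.985) and -0.03 at 1 µM RA (edgeR adjusted p = 0.774). The ratio of *T* to *Sox2* RPKM was therefore 73.0 and 71.2 in the DMSO samples, 24.4 and 24.4 in 25 nM RA, and 21.7 and 23.9 in 1 µM RA.

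*Sox3* (NM_009237), at chrX:60891366-60893430 on the minus strand, is a single-exon gene and the SoxB gene nearest to *Sox2* in level. Its RPKM values were 5.01 and 4.76 in DMSO, 5.99 and 4.96 in 25 nM RA, and 5.02 and 4.32 in 1 µM RA. The estimated counts were 533 and 416, then 476 and 495, then 450 and 392. The samples of the 3 conditions overlapped. In log2 terms *Sox3* differed from DMSO by 0.15 with 25 nM RA (95% interval -0.04 to 0.34, edgeR adjusted p = 0.529) and by -0.07 with 1 µM RA (95% interval -0.27 to 0.12, edgeR adjusted p = 0.690). These intervals leave room for a change of up to 1.27-fold at 25 nM RA. Between doses the log2 fold change was -0.23 (95% interval -0.42 to -0.03, edgeR adjusted p = 0.285), which did not pass the adjusted threshold. Without replicate 1 of 1 µM RA it was -0.35 and did pass (edgeR adjusted p = 0.0889).

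*Sox2* and *Sox3* stood at nearly the same level in DMSO and apart in RA. The *Sox2* to *Sox3* ratio of RPKM was 1.04 and 1.09 in the DMSO samples, 2.59 and 3.08 in 25 nM RA, and 3.44 and 3.55 in 1 µM RA. Taken as the difference of both log2 fold changes, *Sox2* moved apart from *Sox3* by 1.41 at 25 nM RA (95% interval 1.17 to 1.65, a 2.65-fold change of the ratio). At 1 µM RA the difference was 1.71 (95% interval 1.47 to 1.96, 3.28-fold). With any single sample left out it lay between 1.28 and 1.53 at 25 nM RA and between 1.68 and 1.75 at 1 µM RA. The exact permutation test of the log2 ratios, 2 samples against 2 and two-sided, gave p = 0.3333 at each dose for each of the 6 pairs of *Sox2* with another tested gene, the smallest value that this design allows. Between doses the ratio differed by 0.31 on the log2 scale (95% interval 0.07 to 0.54). Without replicate 1 of 25 nM RA this was 0.18, with an interval that included 0.

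**Figure D2:**
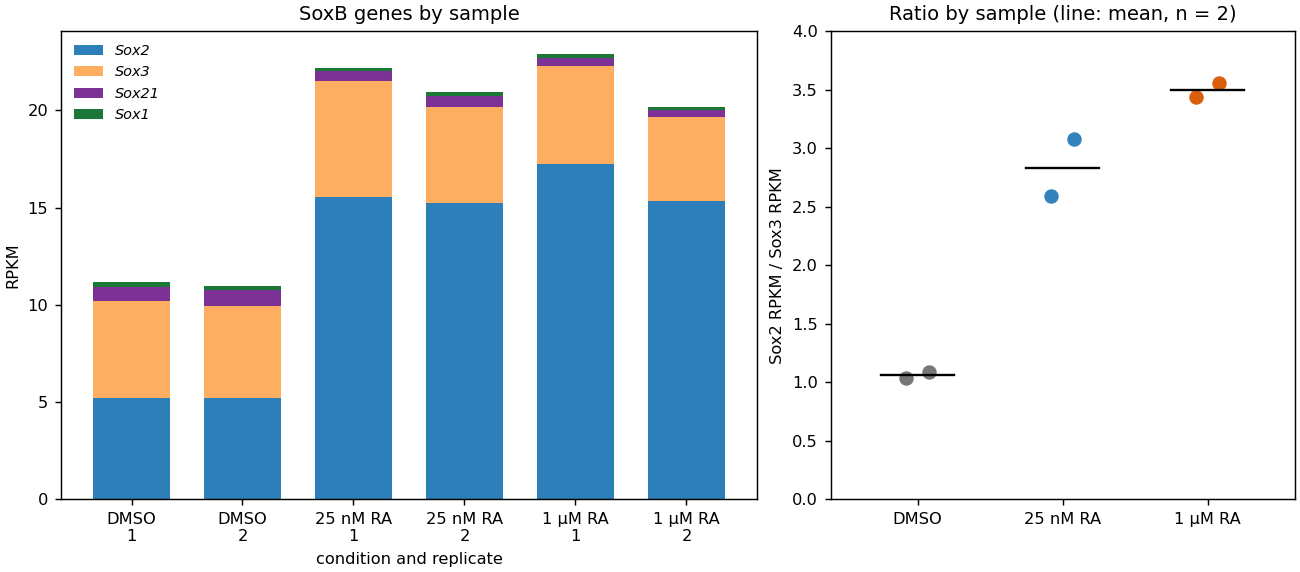
Left, RPKM of the SoxB genes stacked for each of the 6 samples (linear axis from 0). Right, the ratio of *Sox2* to *Sox3* RPKM in each sample, with the mean of 2 samples as a line; the ratio is 1.04 and 1.09 in DMSO and between 2.59 and 3.55 in the RA samples, while the *Sox3* layer keeps between 4.32 and 5.99 RPKM.

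The 4 SoxB genes summed to 11.2 and 11.0 RPKM in DMSO, 22.2 and 20.9 RPKM in 25 nM RA, and 22.9 and 20.2 RPKM in 1 µM RA. *Sox2* made up 46.6% and 47.3% of this sum in DMSO, and between 69.9% and 76.0% in the RA samples. *Sox3* went from 44.9% and 43.4% to between 21.4% and 27.0%. *Sox14*, the fifth SoxB gene and a partner of *Sox21* in the repressor branch, stood at a mean of 0.0407 RPKM in DMSO and was not tested.

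*Sox21* (NM_177753), at chr14:118233234-118237030 on the minus strand, is a single-exon gene of the repressor branch. Its RPKM values were 0.702 and 0.791 in DMSO, 0.499 and 0.529 in 25 nM RA, and 0.438 and 0.336 in 1 µM RA. Each RA sample was below both DMSO samples, and the samples of both doses did not overlap. At 25 nM RA it was 1.44-fold lower (log2 fold change -0.53 ± 0.16 SE, edgeR adjusted p = 0.0186), and at 1 µM RA 1.93-fold lower (log2 fold change -0.95 ± 0.17 SE, edgeR adjusted p = 6.28e-07). The difference between doses was -0.42 on the log2 scale (95% interval -0.78 to -0.06, edgeR adjusted p = 0.280) and was not called. The decrease at 25 nM RA did not pass with DESeq2 (adjusted p = 0.492), nor in edgeR without replicate 2 of DMSO (adjusted p = 0.275), without replicate 1 (adjusted p = 0.190) or 2 (adjusted p = 0.120) of 25 nM RA, or when single transcripts were tested (adjusted p = 0.557). The decrease at 1 µM RA passed in all 14 alternatives, with log2 fold changes from -1.16 to -0.76. *Sox2* and *Sox21* moved apart by 2.09 at 25 nM RA (95% interval 1.74 to 2.44) and by 2.59 at 1 µM RA (95% interval 2.22 to 2.96) on the log2 scale.

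The noncoding gene *LOC105245869* lies on the plus strand across *Sox21*, and reads were divided between them by the authors' estimation. Estimated counts of *Sox21* were 137.2 and 127.1 in DMSO, 72.9 and 97.1 in 25 nM RA, and 72.2 and 56.1 in 1 µM RA. Those of *LOC105245869* lay between 2.77 and 14.9. Both together gave whole numbers of reads within 0.01, 145 and 142 in DMSO, 81 and 105 in 25 nM RA, and 75 and 67 in 1 µM RA. The sum was thus lower in each RA sample than in DMSO, as *Sox21* was. The sources used here do not state a strand setting for the counting. *Sox21* has 1 listed transcript, yet its counts are fractional and become whole only with this gene of the opposite strand. Strand thus did not separate the reads of this pair, and they cannot be told apart. The markers of endoderm fell beside *Sox21*, 5 of 6 at both doses, and summed to 52.8 to 53.8 RPKM in DMSO, 40.8 to 41.1 RPKM in 25 nM RA and 39.5 to 41.3 RPKM in 1 µM RA. Their part in the change of *Sox21* was not tested.

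*Sox1* (NM_009233), at chr8:12395519-12399555 on the plus strand, is the SoxB gene most restricted to neuroectoderm. It had 51 and 39 estimated counts in DMSO, 28 and 42 in 25 nM RA, and 38 and 32 in 1 µM RA. In RPKM this was 0.237 ± 0.0120, 0.198 ± 0.0246 and 0.199 ± 0.0259 (SD, n = 2). Both DMSO samples were above the RA samples in RPKM, but the counting intervals overlapped. On the log2 scale the difference from DMSO was -0.25 with 25 nM RA (95% interval -0.73 to 0.22, edgeR adjusted p = 0.747) and -0.27 with 1 µM RA (95% interval -0.74 to 0.21, edgeR adjusted p = 0.520). At this depth an increase of *Sox1* as large as that of *Sox2* lies outside both intervals, and *Sox2* moved apart from *Sox1* by 1.81 (95% interval 1.32 to 2.31) and 1.91 (95% interval 1.41 to 2.40) on the log2 scale. *Gm5607*, a noncoding gene whose span includes *Sox1*, had 75 to 108 estimated counts per sample and was not called at either dose.

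*Nkx1-2* (NM_009123), at chr7:132596239-132599637 on the minus strand with 2 exons, was the most abundant of the 10 genes in every sample. Its RPKM values were 39.3 and 38.9 in DMSO, 81.2 and 77.9 in 25 nM RA, and 80.5 and 74.8 in 1 µM RA, from 3134 to 7169 estimated counts. The RA samples were all above the DMSO samples, and the samples of both doses overlapped. The increase was 2.03-fold at 25 nM RA (95% interval 1.88 to 2.18, edgeR adjusted p = 2.47e-75) and 1.98-fold at 1 µM RA (95% interval 1.84 to 2.13, edgeR adjusted p = 3.97e-70). The dose difference was -0.04 on the log2 scale (95% interval -0.14 to 0.07, edgeR adjusted p = 0.831). *Sox2* rose more than *Nkx1-2*, by 0.54 on the log2 scale at 25 nM RA (95% interval 0.36 to 0.72) and by 0.66 at 1 µM RA (95% interval 0.48 to 0.83). GENCODE places the antisense gene *Gm16764* and the neighbouring *Fgfr2* over parts of the *Nkx1-2* span, and reads of an antisense gene cannot be told apart without strand. *Gm16764* is not listed under this symbol in the deposited data, and the paper names it among the noncoding genes activated at 25 nM RA. Its part in the change of *Nkx1-2* was not tested.

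*Irx3*, a homeobox gene of intermediate neural tube progenitors at chr8:91798511-91801654 (minus strand, 4 exons, 2 listed transcripts), was expressed at the level of *Sox3*. Its RPKM values were 4.90 and 4.89 in DMSO, 5.37 and 4.88 in 25 nM RA, and 5.26 and 4.82 in 1 µM RA. The 3 conditions overlapped, and GENCODE places the antisense gene *Irx3os* across the locus. With 486 to 593 estimated counts per sample, the log2 fold change came to 0.06 with 25 nM RA (95% interval -0.10 to 0.22, edgeR adjusted p = 0.862) and 0.03 at 1 µM RA (95% interval -0.13 to 0.19, edgeR adjusted p = 0.843). The share of its RPKM given to the transcript NM_001253822 ranged from 7.19% to 29.8% between samples, and this transcript was not called on its own. *Sox2* moved apart from *Irx3* by 1.50 (95% interval 1.29 to 1.71) and 1.61 (95% interval 1.39 to 1.82) on the log2 scale.

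*Pax6*, a paired-box gene of neural tube and eye (chr2:105668896-105698410, plus strand, 8 listed transcripts), had between 7.23 and 14.3 estimated counts per sample. Its RPKM values were 0.0564 and 0.0484 in DMSO, 0.0734 and 0.0592 in 25 nM RA, and 0.0770 and 0.0885 in 1 µM RA. The RA samples were all above the DMSO samples, but the counting intervals of all 6 samples overlapped. The fitted log2 fold change was 0.34 with 25 nM RA (95% interval -0.61 to 1.29, edgeR adjusted p = 0.868) and 0.70 with 1 µM RA (95% interval -0.20 to 1.60, edgeR adjusted p = 0.325). The interval at 1 µM RA reaches from 0.871-fold to 3.03-fold. The difference between *Sox2* and *Pax6*, 1.22 at 25 nM RA (95% interval 0.26 to 2.18) and 0.94 at 1 µM RA (95% interval 0.03 to 1.85), rested on single samples. Its interval included 0 at 25 nM RA without replicate 1 of DMSO (1.09) or replicate 2 of 25 nM RA (1.06), and at 1 µM RA without replicate 1 (0.81) or 2 (1.04) of DMSO or replicate 1 of 1 µM RA (0.76).

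**Figure D3:**
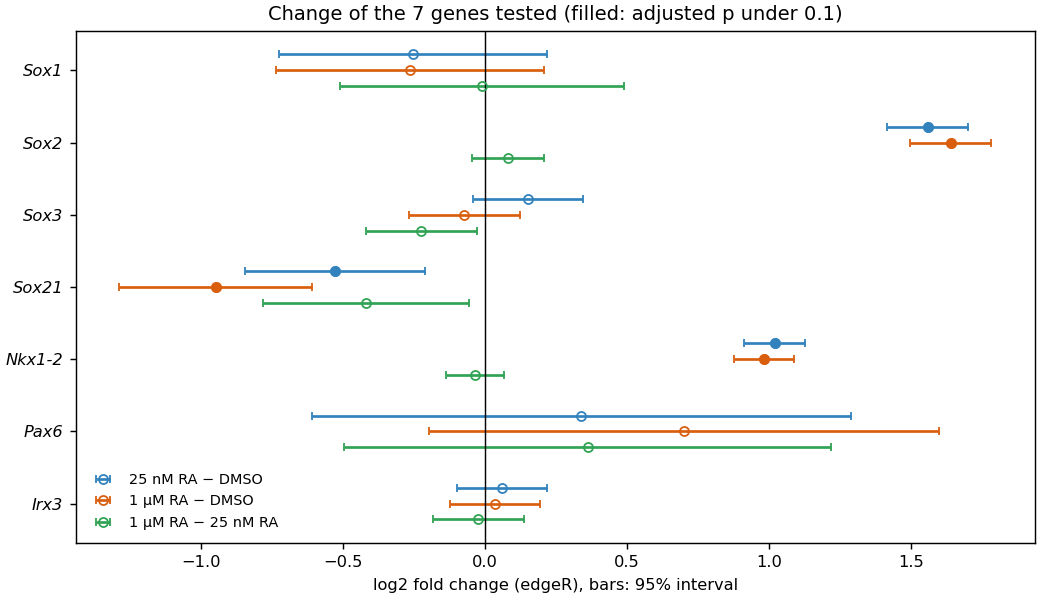
Log2 fold change (horizontal axis) of the 7 genes tested, for 25 nM RA over DMSO, 1 µM RA over DMSO and 1 µM over 25 nM RA. Bars are 95% intervals from the standard errors of the edgeR fit and filled points were called at an adjusted p under 0.1: *Sox2* and *Nkx1-2* lie right of 0 and *Sox21* left of it at both doses, and no gene is filled between doses.

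*Pax3*, *Neurog2* and *Olig2* were below edgeR's filter on low counts. *Pax3*, a paired-box gene of dorsal neural tube and neural crest (chr1:78101267-78197136, minus strand), had 6 and 2 estimated counts in DMSO, 8 and 8 in 25 nM RA, and 6 and 9 in 1 µM RA. Its summed counts gave a ratio to DMSO of 2.16 at 25 nM RA (exact 95% interval 0.871 to 5.82) and 2.00 at 1 µM RA (0.797 to 5.46), with counting error only. *Neurog2*, a proneural bHLH gene (chr3:127633145-127635631, plus strand), had 6 and 2, then 4 and 7, then 2 and 2 counts. Its ratio was 1.48 (0.543 to 4.24) at 25 nM RA and 0.534 (0.118 to 1.99) at 1 µM RA. *Olig2*, the bHLH gene of motor neuron progenitors (chr16:91225550-91228677, plus strand), had 3 and 0 counts in DMSO, 0 and 0 in 25 nM RA, and 4 and 2 in 1 µM RA. Its counts lay around the floor of 3 counts, which in these samples corresponds to 0.0239 to 0.0320 RPKM. Its ratio to DMSO at 1 µM RA was 2.14 (0.456 to 13.2). Every interval against DMSO includes a ratio of 1, and neither an increase nor a decrease from DMSO was detectable for these 3 genes. Between doses the 6 reads of *Olig2* in 1 µM RA stand against 0 in 25 nM RA, with an interval of the ratio that begins at 1.17 and covers counting error only.

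**Figure D4:**
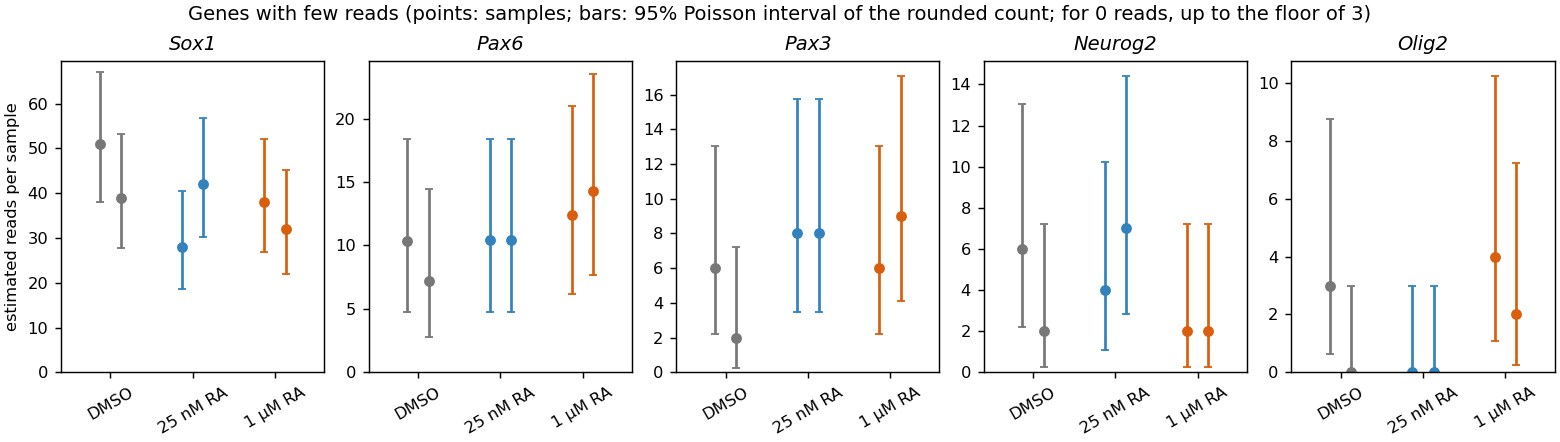
Estimated reads per sample (vertical axis, linear from 0, a scale of its own in each panel) for *Sox1*, *Pax6*, *Pax3*, *Neurog2* and *Olig2*, which have the fewest reads of the 10 genes. Bars are exact 95% Poisson intervals of the rounded count, and for a count of 0 reach the floor of 3; the bars of *Pax3*, *Neurog2* and *Olig2* overlap across the 3 conditions.

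By direction, 2 of the 10 genes were called up and 1 down at 25 nM RA, where 4.5% of all genes tested were called up and 3.55% down. At 1 µM RA it was again 2 up and 1 down, where 8.54% of all genes tested were called up and 11.2% down. At each of the doses 4 tested genes were not called, and 3 genes were not tested. Between doses 0 of the 10 were called with edgeR, where 3.41% of all genes tested were called (0.792% higher and 2.62% lower in 1 µM RA). Before adjustment, *Sox3* and *Sox21* were the 2 of the 7 tested with an edgeR p under 0.05 in this comparison. Over all 15143 genes tested, 1934 had such a p. DESeq2 also called 0 of the 10. *Rarb*, *Dhrs3* and *Cyp26a1* were called higher in 1 µM RA than in 25 nM RA (log2 fold changes 0.36, 0.66 and 0.64). The 2 comparisons with DMSO share their control samples, so that the values at both doses are not independent. Over the 7 genes tested the median log2 fold changes were 0.15 (25 nM RA) and 0.03 (1 µM RA), beside -0.00051 and 0.0013 over all genes tested.

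Genes with the pattern most like that of each called gene were found by Euclidean distance in centred log2 CPM over the 6 samples, among 11095 genes with a mean above 1 RPKM. Nearest to *Sox2* were *Spsb1* (distance 0.118), *Nt5e* (0.154) and *Rara* (0.172), which encodes an RA receptor and went from 3.42 RPKM in DMSO to 10.1 and 10.8 RPKM. Nearest to *Nkx1-2* were *Ppl* (0.118), *Grasp* (0.148) and *Fam101b* (0.148). Nearest to *Sox21* were *Sox17* (0.264), *Nr4a1* (0.269) and *Proser1* (0.272).

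Other Sox genes showed changes in both directions. Of 12 tested of 14, 3 rose and 1 fell at 25 nM RA, and 3 rose and 3 fell at 1 µM RA, with median log2 fold changes of 0.10 and 0.06. *Sox13* rose by a log2 fold change of 1.26 and 1.20, from 1.36 RPKM in DMSO to 3.28 and 3.15 RPKM. *Sox8* and *Sox9*, both SoxE genes, rose at both doses from under 1 RPKM. *Sox17*, an endoderm gene, fell by 0.58 and 0.98 on the log2 scale, and was also lower in 1 µM RA than in 25 nM RA (log2 fold change -0.40, edgeR adjusted p = 8.94e-05). At 1 µM RA *Sox12* and *Sox11* fell as well, and *Sox12* was lower in 1 µM RA than in 25 nM RA (log2 fold change -0.32, edgeR adjusted p = 0.00281).

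Of 17 further factors of spinal cord progenitor domains, 10 were tested. *Msx1*, a dorsal homeobox gene, fell at both doses (log2 fold change -0.41 and -0.47). At 1 µM RA *Irx5* (-0.38) and *Irx1* (-0.50) also fell and *Pax7* rose (0.62, edgeR adjusted p = 0.0633), from 0.169 to 0.262 RPKM. The medians of these 10 were -0.14 and -0.35. Among proneural bHLH genes, *Bhlhe22* fell at 1 µM RA (log2 fold change -0.52, edgeR adjusted p = 0.00562).

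Of 14 neuronal differentiation genes 13 were tested, of which 2 rose and 2 fell at 25 nM RA and 2 rose and 5 fell at 1 µM RA (medians -0.08 and -0.21). *Mnx1*, a homeobox gene of motor neurons that is also expressed in caudal tissue, rose from 1.18 RPKM to 3.58 and 4.28 RPKM (log2 fold change 1.60 and 1.85). *Lhx3* rose by 0.99 and 0.84, whereas *Isl1* (-0.80 and -1.18) and *Lhx1* (-0.35 and -0.51) fell. The name of a list does not tell which cells of the dish expressed its genes, and this was not tested. Of 17 anterior neural factors 5 were tested. *Otx2*, a gene of forebrain and midbrain though not only of these, fell from 28.1 RPKM to 20.3 and 19.4 RPKM, and *Otx1* fell at 1 µM RA. The medians of these 5 were -0.24 and -0.55.

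All 10 genes of neural plate border and crest other than *Pax3* were tested, with 2 up and 2 down at 25 nM RA and 3 up and 3 down at 1 µM RA (medians -0.0033 and -0.20). *Tfap2c* rose from 1.89 RPKM to 3.01 and 3.33 RPKM, and *Foxd3* fell from 0.432 RPKM to 0.148 and 0.0820 RPKM. Of 11 caudal progenitor genes beside *Sox2* and *Nkx1-2*, 10 were tested, with 4 up and 3 down at 25 nM RA and 4 up and 4 down at 1 µM RA (medians 0.03 and -0.0026). *Cdx1* (log2 fold change 1.77 and 1.94) and *Wnt8a* (1.22 and 1.26) rose beside *Sox2*, and *Evx1* (-0.70 and -0.86) and *Sp5* (-0.36 and -0.67) fell. *Sp5* and *Sp8* were lower in 1 µM RA than in 25 nM RA (edgeR adjusted p = 0.00940 and 0.0724). *Sox2ot* and *Gm5607* were the 2 tested of 3 listed noncoding neighbours, and neither was called.

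**Figure D5:**
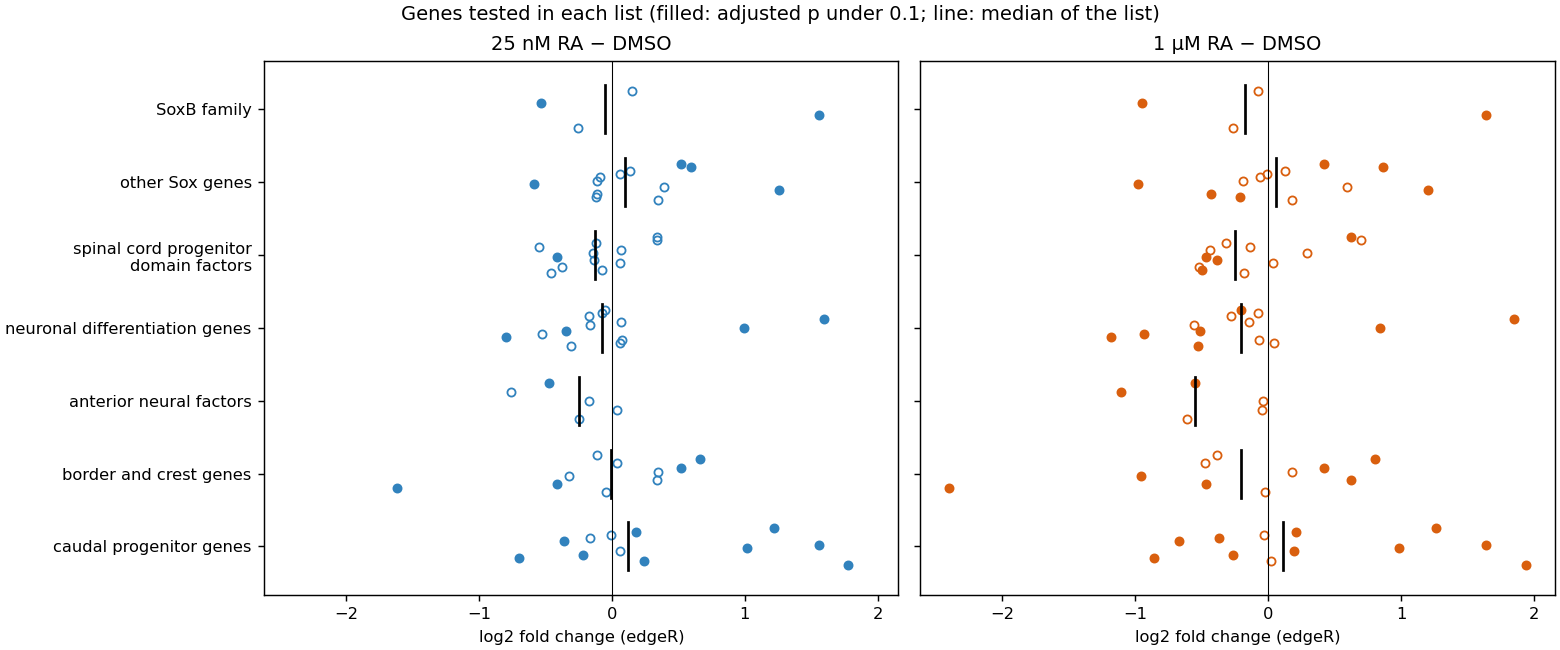
Log2 fold change over DMSO (horizontal axis) of each tested gene of 7 lists, at 25 nM RA (left) and 1 µM RA (right); the 10 genes above are included in the lists that hold them. Filled points were called at an adjusted p under 0.1 (edgeR) and the vertical bar is the median of the list, which lies between -0.55 and 0.12 for each list while single genes reach from -2.40 to 1.94.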

How the data were processed

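Total RNA depleted of ribosomal RNA from 6 samples (DMSO, 25 nM RA and 1 µM RA, 2 each) was sequenced with a stranded kit. Per the labels and the methods, the authors aligned reads to mm10 (TopHat2 2.0.13 and Bowtie2 2.2.5.0 are listed) and estimated transcript abundance in Partek 6.6. The estimated counts deposited by the authors are not normalized, and 46.8% to 47.6% of the transcript values of a sample differ by more than 0.01 from a whole number. The RPKM values deposited by the authors are relative to transcript length and library depth, with implied totals of 38466126 to 51499056. A strand setting of the counting is not given in the sources used here.

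Estimated counts and RPKM were summed per gene. After rounding, 15143 of 20631 genes that passed filterByExpr were fitted with edgeR 4.0.16 in R 4.3.3, using TMM factors and the likelihood ratio test named in the methods, and each condition had its own coefficient. Intervals use the standard errors of the fit. Those of a difference between *Sox2* and another gene combine the errors of both genes as independent, although both come from the same samples. For genes under the filter, exact conditional intervals of summed counts were given. Intervals and the floor of 3 counts cover counting error only, and reads without molecular identifiers are not independent molecules. The fits were also run on counts simulated with the spread that edgeR had estimated. Such a run cannot test whether that spread holds for these dishes. As alternatives, the quasi-likelihood test of edgeR, DESeq2 1.42.0, other size factors, no filter, single transcripts, a replicate block, only the 4 samples compared, an adjusted p under 0.05, RPKM on TMM-scaled totals or of the most abundant transcript, and each sample left out were tried.

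Results for some genes of the lists are not reported here. The 10 genes and the gene lists were chosen with earlier results of these data known. Text names these 10 genes, up to 4 genes of each list with the smallest adjusted p and the genes a result turns on, and 3 nearest patterns for each called gene. Gene positions are those of the deposited tables, exons and overlapping genes are from GENCODE (GRCm38), and promoters are from RefSeq. Further steps used Python 3.11.15, pandas 2.3.3, scipy 1.17.1 and matplotlib 3.10.9.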

Additional observations from a re-analysis of the deposited data

How the results depend on the processing

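*Sox2* and *Nkx1-2* were called at both doses in all 14 alternatives, with log2 fold changes of *Sox2* from 1.54 to 1.73 and of *Nkx1-2* from 0.92 to 1.04, and *Sox21* was called at 1 µM RA in all 14 and at 25 nM RA in 9 of 14. *Sox3*, *Sox1*, *Irx3* and *Pax6* were called against DMSO in none of the alternatives run. Between doses 0 of the 10 genes were called, or 0 to 1 with a sample left out (*Sox3* without replicate 1 of 1 µM RA). The number of all genes called at 25 nM RA was 1219, and 567 with DESeq2, 507 with single transcripts and 799 to 1345 with a sample left out (lowest without replicate 2 of 25 nM RA, and 800 without replicate 2 of DMSO). At 1 µM RA it was 2983, and 1594, 1253 and 1922 to 2838 (1922 without replicate 2 and 1960 without replicate 1 of DMSO). Between doses it was 516, and 336 with the quasi-likelihood test, 158 with DESeq2, 183 with single transcripts, 340 at an adjusted p under 0.05 and 205 to 577 with a sample left out (205 without replicate 1 and 247 without replicate 2 of 25 nM RA). The cause of these shifts was not tested. With the replicate number as a block the counts were 1138, 2756 and 423, and no call among the 10 genes changed. Samples of one number did not deviate together (correlations -0.0409, 0.0484 and -0.0615 over 15143 genes), so that the numbers give no pairing. Rescaling RPKM by TMM moved no mean by over 0.875%. Of *Irx3*, taking only the most abundant transcript gave 4.05, 3.98 and 4.41 RPKM in the 3 conditions. *Sox1*, *Pax6*, *Pax3*, *Neurog2* and *Olig2* are limited by depth, with 51 reads or fewer per sample.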
